A study of Mus musculus with 21 samples.

Results

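Agr2, Lrrc26 and the Dcpp genes Dcpp1, Dcpp2 and Dcpp3 encode proteins of secretory epithelia, and their RNA levels are described here in the mouse thyroid. The members are 5 of the 45777 genes in the deposited tables, and they were selected on the size of their differences between the groups with and without thyroid stimulating hormone (TSH) or methimazole in these same libraries. Their levels and differences are therefore given as a description, with no test. All 5 passed the filter on low counts at both times. C57BL/6J mice received pLIVE, a plasmid whose insert is expressed by liver cells, as either the empty vector (Empty) or the vectors pLIVE-TSHB and pLIVE-CGA for the beta chain and the alpha chain of TSH (TSH). Mice called TSH-MMI received the TSH vectors and thiamazole, also named methimazole (MMI), which inhibits the thyroid peroxidase that makes thyroid hormone, and mice called Empty-MMI received the empty vector and methimazole. RNA from thyroid glands was sequenced at 1 week in Empty, TSH and TSH-MMI, and at 4 weeks in these groups and Empty-MMI, with 3 libraries in each of the 7 groups. All groups share the strain and a pLIVE vector, and the labels of all of them, Empty included, carry the same entry on the induction of hyperthyroidism. The sources used here do not give the ages of the mice and do not say that the libraries came from separate animals, so p-values measure the spread between these libraries.

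AGR2 is a protein disulfide isomerase of the endoplasmic reticulum, which helps secreted proteins to fold and form disulfide bonds, and it is best known for its part in the making of mucins in goblet cells. LRRC26 is an auxiliary gamma subunit of the BK channel, the large potassium channel whose pore is KCNMA1, and it lets that channel open in epithelial cells that are not electrically excited. The Dcpp genes, named for demilune cells and the parotid gland, encode small secreted lectin-like proteins of mouse salivary glands. Thyroid follicular cells are themselves secretory: they make thyroglobulin under the control of TSH.

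The 3 Dcpp genes lie side by side on chromosome 17 of GRCm38 in RefSeq, Dcpp1 (gene identifier 13184) at 23880669 to 23882853, Dcpp2 (630537) at 23898722 to 23900788 and Dcpp3 (620253) at 23917419 to 23919441. Agr2 (23795) lies on chromosome 12 at 35992925 to 36004081, and Lrrc26 (227618) on chromosome 2 at 25289911 to 25291193. The coding sequences of the GENCODE transcripts of Dcpp1 and Dcpp2 were 93.8% identical, those of Dcpp1 and Dcpp3 93.2%, and those of Dcpp2 and Dcpp3 95.3%. The 90 bases shown here, from coding base 274 to 363 of Dcpp1, hold 20 of the 43 positions at which the aligned coding sequences differ, beside 3 gapped positions. They are shown because such positions help to tell the copies apart, and capitals mark the positions that differ between the copies. At some of these Dcpp2 and Dcpp3 share a letter, and such a position does not tell Dcpp2 from Dcpp3.
Dcpp1 coding stretch: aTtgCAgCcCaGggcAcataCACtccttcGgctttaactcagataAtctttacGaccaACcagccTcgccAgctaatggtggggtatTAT
Dcpp2 coding stretch: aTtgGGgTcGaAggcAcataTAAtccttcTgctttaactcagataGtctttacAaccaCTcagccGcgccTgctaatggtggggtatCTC
Dcpp3 coding stretch: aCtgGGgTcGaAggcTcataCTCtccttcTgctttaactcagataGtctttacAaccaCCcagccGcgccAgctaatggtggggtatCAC

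Reads without a position that sets the copies apart can be given to more than 1 copy. Of all windows of 100 coding bases, 5.76% of those of Dcpp1, 2.64% of Dcpp2 and 6.04% of Dcpp3 occurred whole in another copy, and with windows of 50 bases these shares were 35.8%, 23.3% and 26.9%. The sources used here do not give the read length or the treatment of reads that match several genes, so the split between copies is less certain than their sum, which is given beside them. Agr2 had no such close copy: its coding sequence was 66.6% identical to that of its neighbour Agr3.

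The promoters of the Dcpp genes were also near copies. RefSeq's windows from 250 bases before to 50 bases after the start site on GRCm38.p6, a site which for Dcpp1 and Dcpp3 lies inside the annotated gene, were 96.6% identical between Dcpp1 and Dcpp2, 97.3% between Dcpp1 and Dcpp3, and 97.0% between Dcpp2 and Dcpp3. They are shown because all 3 genes had counts in each of the 12 libraries with the TSH vectors. The capitals mark the letters TATAA and TGACG, which are core letters of a TATA box and a half-site of the cyclic AMP response element.
Dcpp1 promoter window, chr17:23880626-23880925, plus strand: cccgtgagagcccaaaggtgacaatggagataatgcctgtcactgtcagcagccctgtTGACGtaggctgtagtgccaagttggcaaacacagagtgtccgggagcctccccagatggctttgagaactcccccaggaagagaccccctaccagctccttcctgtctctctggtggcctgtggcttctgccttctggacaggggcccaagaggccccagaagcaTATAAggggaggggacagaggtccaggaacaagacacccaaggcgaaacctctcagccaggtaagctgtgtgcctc
Dcpp2 promoter window, chr17:23898472-23898771, plus strand: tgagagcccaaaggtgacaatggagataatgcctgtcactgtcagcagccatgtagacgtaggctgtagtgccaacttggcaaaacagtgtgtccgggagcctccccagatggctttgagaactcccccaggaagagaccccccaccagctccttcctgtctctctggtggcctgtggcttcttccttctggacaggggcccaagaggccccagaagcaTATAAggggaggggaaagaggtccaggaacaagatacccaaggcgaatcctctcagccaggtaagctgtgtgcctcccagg
Dcpp3 promoter window, chr17:23917208-23917507, plus strand: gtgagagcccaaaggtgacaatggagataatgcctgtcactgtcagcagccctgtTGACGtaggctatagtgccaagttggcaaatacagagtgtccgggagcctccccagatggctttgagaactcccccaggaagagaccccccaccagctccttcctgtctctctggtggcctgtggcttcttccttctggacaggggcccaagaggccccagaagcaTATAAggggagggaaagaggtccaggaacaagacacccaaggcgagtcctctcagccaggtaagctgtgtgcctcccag

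TATAA began 26 bases before the start site in Dcpp1, 31 in Dcpp2 and 29 in Dcpp3. It occurred, on either strand, in 24.9% of 32851 promoter windows. TGACG began 192 bases before the start in Dcpp1 and 195 in Dcpp3, had no match in the window of Dcpp2, and occurred in 20.8% of all windows. The whole element TGACGTCA, found in 1.79% of windows, had no match in the 5 members, nor had TGTTTAC (a FOXA motif, 3.65%), CAAGTG (an NKX2-1 motif, 13.6%) or CACGTG (an E-box, 7.15%). CCAAT, found in 37.4% of windows, occurred at 2 places in the window of Lrrc26 and 1 in that of Agr2. Both strands were searched, TGACG overlaps TGACGTCA, and a match is a description of these letters only.

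Library totals ran from 32244842 to 51886245 counts. Levels are CPM, counts scaled to a common library size by the trimmed mean of M values (TMM) within each time, and the log2 fold change (log2FC) comes from edgeR with its standard error (SE). A gene is called higher or lower where edgeR's quasi-likelihood test, adjusted over all genes tested, gave p under 0.05. The tables of 1 and 4 weeks were deposited and scaled separately, so a range, rank or correlation over the 21 libraries sets levels of both times side by side, as a description only, and no fit spans the times. Thyroglobulin (Tg) had 5895592 to 15820937 counts per library, so the defining gene of the labelled tissue was abundant throughout. The libraries also held RNA of neighbouring tissues in unequal amounts. In bulk tissue, fewer cells of a type and less RNA per cell cannot be told apart.

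A single library stood apart for the Dcpp genes. Replicate 2 of Empty at 4 weeks had 1913 Dcpp counts, or 39.2 CPM, which was 67.6 times the mean of the other 2 Empty libraries. Each 4-week ratio of Dcpp means against Empty is therefore given with and without it. The SE of each 4-week Dcpp log2FC and the correlations with Dcpp levels include this library. The same library was the highest of the 21 for 5 of 17 airway epithelium markers and for 0 of 30 salivary gland genes, and it is described again with the Dcpp copies.

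**Figure D1:**
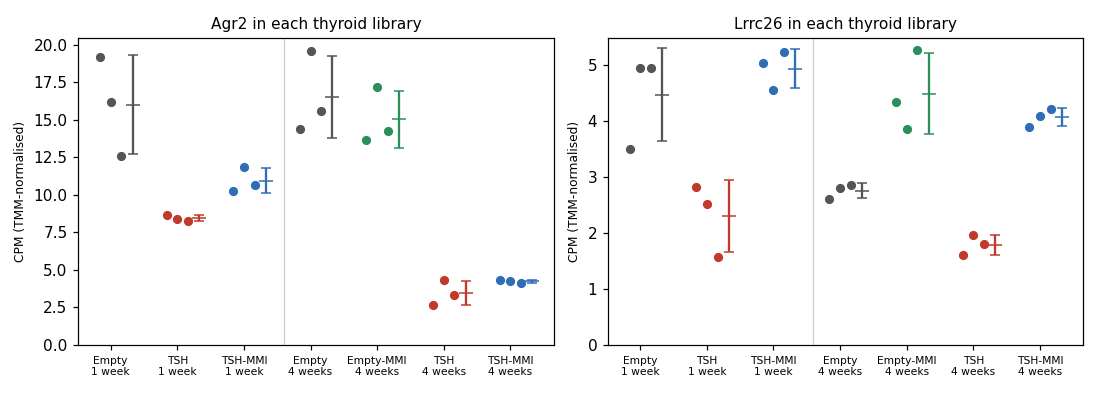
CPM of Agr2 (left) and Lrrc26 (right) in each of the 21 libraries, by group on the horizontal axis, with a linear vertical axis from 0; points are libraries and bars are the mean and SD of 3. Agr2 lay at or below 4.35 CPM in both TSH vector groups of 4 weeks and at or above 13.7 CPM in the other groups of that time, while Lrrc26 was lowest in TSH at each time.

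Agr2, the disulfide isomerase, was lower in every group with the TSH vectors than in Empty: in TSH by 1.90-fold at 1 week and by 4.77-fold at 4 weeks, ratios whose difference was not tested. At 1 week the 3 Empty libraries had 19.2, 16.2 and 12.6 CPM. TSH libraries had 8.67, 8.41 and 8.26 CPM, and TSH-MMI libraries had 10.3, 11.9 and 10.7 CPM. The 3 groups did not overlap, with Empty highest and TSH lowest. The mean (± SD, n = 3) was 8.45 ± 0.208 CPM in TSH, 10.9 ± 0.821 CPM in TSH-MMI and 16.0 ± 3.30 CPM in Empty. The log2FC of TSH against Empty was -0.92 (SE 0.14), and that of TSH-MMI against Empty was -0.55 (SE 0.14).

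At 4 weeks the Empty libraries had 14.4, 19.6 and 15.6 CPM of Agr2, and those of Empty-MMI 13.7, 17.2 and 14.2 CPM. TSH libraries had 2.69, 4.34 and 3.36 CPM, and TSH-MMI libraries 4.35, 4.28 and 4.13 CPM. Groups with the TSH vectors lay below both groups without them, with a gap between the highest of the former and the lowest of the latter. Agr2 was 4.77-fold lower in TSH than in Empty (log2FC -2.25, SE 0.17), 3.88-fold lower in TSH-MMI than in Empty (-1.96, SE 0.17) and 3.54-fold lower in TSH-MMI than in Empty-MMI (-1.82, SE 0.17).

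Methimazole went with smaller differences in Agr2. Empty-MMI and Empty overlapped (log2FC -0.13, SE 0.16), and so did TSH-MMI and TSH at 4 weeks (0.29, SE 0.18). At 1 week TSH-MMI was 1.30-fold higher than TSH, without overlap (0.37, SE 0.14). The order at 4 weeks was thus TSH, TSH-MMI, Empty-MMI and Empty, in which TSH overlapped TSH-MMI and Empty-MMI overlapped Empty.

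Markers of C cells, the neuroendocrine cells of the thyroid that make calcitonin, were lower in the groups where Agr2 was lower. The summed level of 11 markers, without chromogranin A (Chga), which the parathyroid list also holds, was 465 to 641 CPM in TSH, 764 to 1003 CPM in TSH-MMI and 947 to 1057 CPM in Empty at 1 week. At 4 weeks it was 565 to 598 CPM in TSH, 666 to 790 CPM in TSH-MMI, 904 to 1312 CPM in Empty-MMI and 1150 to 1339 CPM in Empty. Of these markers 9 were tested, and in TSH against Empty 7 were called lower at each time and 1 higher at 1 week, with a median log2FC of -1.02 at 1 week and -1.07 at 4 weeks. In TSH-MMI against Empty at 1 week 3 were called lower and 1 higher, with a median of -0.47, and at 4 weeks 7 lower, with a median of -0.96. Of all genes tested, 9.34% were called lower in TSH and 7.97% in TSH-MMI against Empty at 1 week, and 5.62% and 5.97% at 4 weeks. Calcb was at 0 in 9 libraries and Scgn in 19. The parathyroid markers Pth, Gcm2, Casr and Chga together ran from 46.2 to 18683 CPM, and in Empty replicate 3 of 4 weeks, where they summed to 268 CPM, Agr2 had 15.6 CPM. The part of C cells in the level of Agr2 was not tested.

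The genes whose pattern over the 21 libraries was most like that of Agr2 were Aldh5a1 (Pearson r 0.93), Fkbp11 (0.91), Ptprn (0.91), Chad (0.90) and Srpx (0.90), among 13236 genes with a mean of at least 1 CPM. These correlations use log2 CPM, are descriptions, and share the libraries, their groups and their depth. ALDH5A1 breaks down the transmitter GABA in mitochondria, FKBP11 is a prolyl isomerase of the secretory pathway, and PTPRN is a protein of neuroendocrine granules. Fkbp11 had a mean of 14.5 ± 0.677 CPM in Empty at 4 weeks (SD, n = 3), against 7.03 ± 0.684 in TSH-MMI and 7.15 ± 1.03 in TSH. Ptprn had 10.7 ± 0.850 CPM in TSH-MMI, 11.4 ± 1.41 in TSH and 23.2 ± 1.74 in Empty at that time.

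Lrrc26, the BK channel subunit, was lower with the TSH vectors alone but not when methimazole was given with them. At 1 week Empty libraries had 3.50, 4.94 and 4.95 CPM, TSH libraries 2.81, 2.52 and 1.57 CPM, and TSH-MMI libraries 5.02, 4.54 and 5.23 CPM. TSH lay below both other groups, which overlapped. The log2FC was -0.96 (SE 0.23) for TSH against Empty, 0.14 (SE 0.22) for TSH-MMI against Empty and 1.10 (SE 0.23) for TSH-MMI against TSH, the last a 2.14-fold difference.

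At 4 weeks Empty libraries had 2.60, 2.81 and 2.86 CPM of Lrrc26, and Empty-MMI libraries 4.33, 3.85 and 5.27 CPM. TSH libraries had 1.60, 1.97 and 1.79 CPM, and TSH-MMI libraries 3.90, 4.08 and 4.21 CPM. Both groups with methimazole lay above Empty, TSH lay below it, and the groups with methimazole overlapped each other. The mean (± SD, n = 3) was 1.79 ± 0.182 CPM in TSH, 2.75 ± 0.136 in Empty, 4.06 ± 0.159 in TSH-MMI and 4.48 ± 0.721 in Empty-MMI.

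Lrrc26 was 1.54-fold lower in TSH than in Empty at 4 weeks (log2FC -0.62, SE 0.17). With methimazole it was 1.63-fold higher in Empty-MMI than in Empty (0.70, SE 0.16) and 2.27-fold higher in TSH-MMI than in TSH (1.18, SE 0.17). Between the groups with methimazole, TSH-MMI against Empty-MMI, the log2FC was -0.14 (SE 0.16). These comparisons share groups of libraries, so they are not independent of each other.

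Lrrc26, whose highest coordinate is 25291193, overlaps by a few bases the gene Grin1, which encodes a glutamate receptor subunit and whose lowest coordinate is 25291177. The library kit keeps the strand, per the labels' protocols, but the sources used here do not say whether counting used it, so reads of the overlap cannot be assigned with certainty. Grin1 had 25 to 85 counts per library. It fell in TSH against Empty at 1 week (log2FC -1.0, SE 0.32, edgeR adjusted p = 0.0392), a call lost under 10 of 15 alternatives, among them leaving out Empty replicate 1 or 3 or any TSH library, both limma fits and the muscle covariate. At 4 weeks it fell in TSH-MMI against Empty (-1.12, SE 0.28, adjusted p = 0.0154), where Lrrc26 was higher, a call lost without TSH-MMI replicate 1 or 3 and with skeletal muscle markers as a covariate. It also fell in TSH-MMI against Empty-MMI (-1.07, SE 0.28, adjusted p = 0.0471), a call lost under 10 of 14 alternatives.

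The genes most like Lrrc26 over the 21 libraries were Snx8 (r 0.82), Mboat2 (0.82), Hebp2 (0.74), Maoa (0.71) and St7 (0.71). SNX8 is a sorting nexin of endosomes, MBOAT2 an enzyme that remodels phospholipids and MAOA a monoamine oxidase. Mboat2 had a mean (± SD, n = 3) at 4 weeks of 13.3 ± 2.06 CPM in TSH, 16.5 ± 1.53 in Empty, 17.4 ± 1.68 in TSH-MMI and 21.7 ± 1.80 in Empty-MMI. Between the members, r was 0.43 for Agr2 and Lrrc26, -0.63 for Agr2 and the Dcpp sum, and -0.30 for Lrrc26 and the Dcpp sum.

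**Figure D2:**
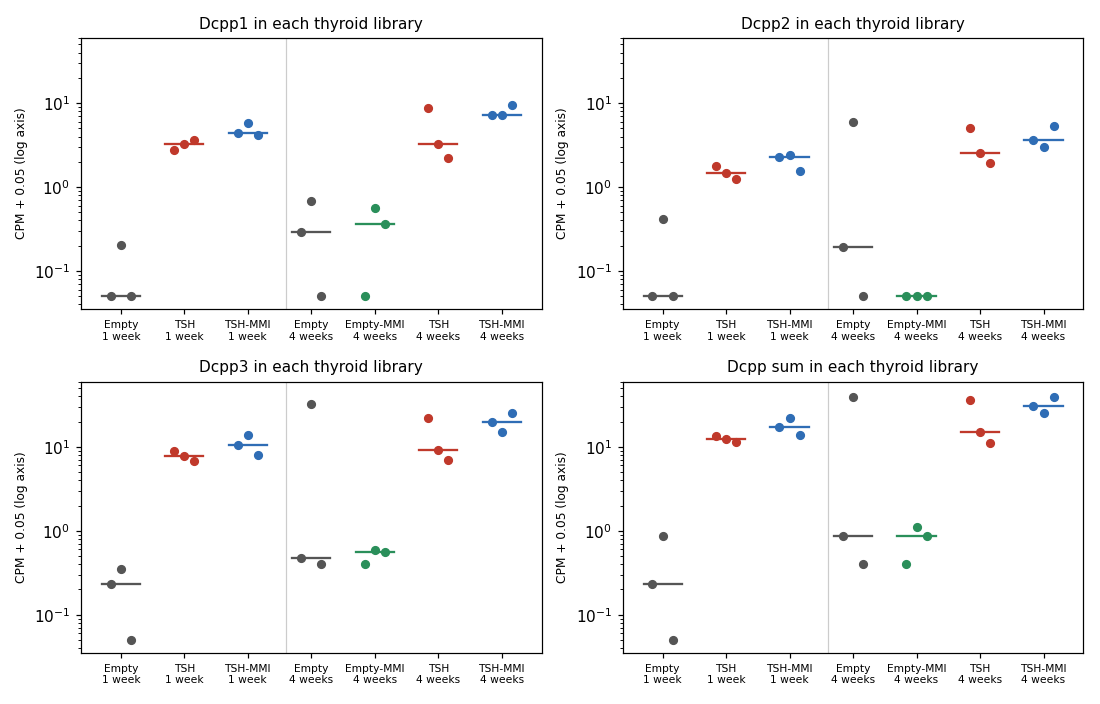
CPM plus 0.05 of Dcpp1, Dcpp2, Dcpp3 and their sum in each of the 21 libraries, by group on the horizontal axis, with a logarithmic vertical axis; points are libraries, lines are medians of 3, and libraries without a count lie at 0.05. The 12 libraries with the TSH vectors had sums of 11.0 to 39.7 CPM, and of the 9 without them only Empty replicate 2 of 4 weeks, at 39.2 CPM, reached that range.

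The Dcpp genes were near the floor without the TSH vectors, except in the library that stood apart, and were present in each library with them. At 1 week the Dcpp sum was 0.184, 0.818 and 0 CPM in Empty, where replicate 2 had 27 of the 34 counts. It was 13.4, 12.3 and 11.5 CPM in TSH and 17.2, 21.9 and 13.6 CPM in TSH-MMI. A library with 0 counts allows up to 3 counts, which covers counting error only. The mean was 37.1-fold higher in TSH than in Empty (log2FC 5.27, SE 0.72) and 52.6-fold higher in TSH-MMI than in Empty (5.77, SE 0.73). Without Empty replicate 2 these log2FC were 7.02 and 7.53. TSH-MMI was 1.42-fold higher than TSH without overlap (0.51, SE 0.52).

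Each copy showed this difference at 1 week. Dcpp1 had 0, 0.152 and 0 CPM in the Empty libraries, 2.73, 3.17 and 3.59 CPM with the TSH vectors, and 4.35, 5.68 and 4.16 CPM with these and methimazole. Dcpp2 had 0, 0.364 and 0 CPM in the Empty libraries, 1.75, 1.42 and 1.19 CPM with the TSH vectors, and 2.22, 2.37 and 1.49 CPM with these and methimazole. Dcpp3 had 0.184, 0.303 and 0 CPM in the Empty libraries, 8.93, 7.69 and 6.70 CPM with the TSH vectors, and 10.6, 13.9 and 7.99 CPM with these and methimazole. Dcpp3 was the highest copy in each library with the TSH vectors, and for no copy did Empty overlap either of those groups. TSH and TSH-MMI overlapped for Dcpp2 and Dcpp3, and not for Dcpp1.

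At 4 weeks the Dcpp sum was 0.813, 39.2 and 0.348 CPM in Empty and 0.349, 1.06 and 0.829 CPM in Empty-MMI. It was 35.7, 14.8 and 11.0 CPM in TSH and 30.4, 25.1 and 39.7 CPM in TSH-MMI. Both groups with the TSH vectors lay above Empty-MMI and above Empty replicates 1 and 3, and overlapped Empty through replicate 2 alone. The means of TSH-MMI and Empty-MMI do not use Empty, and that of TSH-MMI was 42.6-fold higher (log2FC 5.38, SE 1.69). This SE comes from the joint fit of 4 weeks, which includes Empty replicate 2.

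Against Empty, the ratio of means depended on that library. The Dcpp sum was 1.53-fold higher in TSH than in Empty with all libraries (log2FC 0.60, SE 1.31) and 35.4-fold higher without Empty replicate 2. In TSH-MMI it was 2.36-fold higher with all libraries (1.23, SE 1.31) and 54.7-fold higher without it. Empty-MMI was 18.1-fold lower than Empty with all libraries (-4.14, SE 1.65), and 1.28-fold higher, with overlap, without it. TSH-MMI and TSH overlapped (0.64, SE 1.30).

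Each copy was higher in both groups with the TSH vectors than in Empty-MMI at 4 weeks. Dcpp1 had 0.244, 0.635 and 0 CPM in Empty and 0, 0.517 and 0.317 CPM in Empty-MMI, against 7.09, 7.11 and 9.42 CPM in TSH-MMI and 8.71, 3.21 and 2.18 CPM in TSH. For Dcpp1, whose level in Empty replicate 2 was low, Empty did not overlap TSH (16.0-fold) or TSH-MMI (26.9-fold) with all libraries, and without replicate 2 these ratios were 38.6 and 64.6. Dcpp2 had 0.142, 5.96 and 0 CPM in Empty, no count in Empty-MMI, 3.56, 2.95 and 5.23 CPM in TSH-MMI and 5.03, 2.46 and 1.87 CPM in TSH. Against Empty-MMI, the mean of Dcpp2 in TSH-MMI was at least 54.4-fold higher, with the floor of 3 counts per library. Dcpp3 had 0.427, 32.6 and 0.348 CPM in Empty, 0.349, 0.538 and 0.512 CPM in Empty-MMI, 19.8, 15.0 and 25.01 CPM in TSH-MMI and 22.0, 9.17 and 6.93 CPM in TSH. For Dcpp2 and Dcpp3 both groups with the TSH vectors overlapped Empty through replicate 2. The mean of Dcpp2 was 1.53-fold higher in TSH and 1.92-fold higher in TSH-MMI than in Empty with all libraries, and 43.9-fold and 55.0-fold higher without replicate 2. The mean of Dcpp3 was 1.14-fold and 1.79-fold higher with all libraries, and 32.8-fold and 51.5-fold higher without it.

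**Figure D3:**
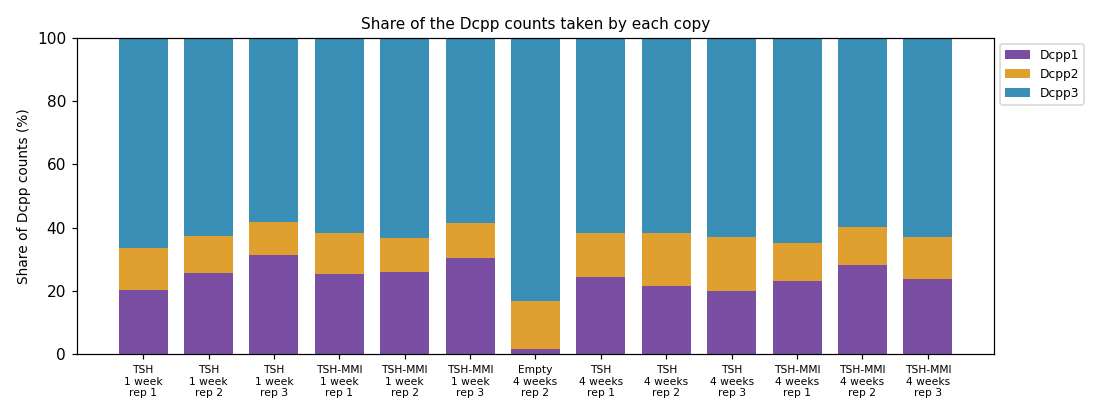
Share of the Dcpp counts, in percent, taken by Dcpp1, Dcpp2 and Dcpp3 in the 12 libraries with the TSH vectors and in Empty replicate 2 of 4 weeks, with 1 stacked bar per library. Dcpp1 took 19.9% to 31.3% in the 12 libraries and 1.62% in the Empty library.

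In the 12 libraries with the TSH vectors Dcpp3 took the largest share of the Dcpp counts and Dcpp2 the smallest. Dcpp3 took 58.3% to 66.5% (median 62.2%), Dcpp1 19.9% to 31.3% (median 24.8%) and Dcpp2 10.4% to 17.1% (median 12.3%). The share of Dcpp2 was 14.1%, 16.6% and 17.1% in TSH at 4 weeks, above its share in each of the other 9 libraries, which was at most 13.2%. In Empty replicate 2 of 4 weeks the division was another: Dcpp3 took 83.2%, Dcpp2 15.2% and Dcpp1 1.62% (95% exact binomial interval 1.10% to 2.29%). Dcpp1 had 31 counts there, Dcpp2 291 and Dcpp3 1591. The share of Dcpp1 thus lay below the whole range of the 12 libraries, whereas that of Dcpp2 lay within it. The intervals cover counting error only.

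**Figure D4:**
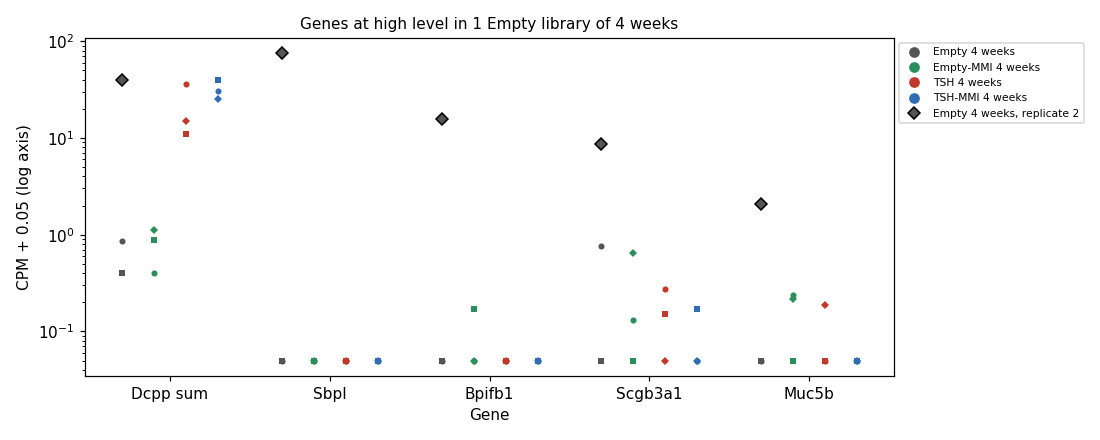
CPM plus 0.05 of the Dcpp sum, Sbpl, Bpifb1, Scgb3a1 and Muc5b in the 12 libraries of 4 weeks, with a logarithmic vertical axis; colours are groups, marker shapes are replicate numbers and the outlined diamond is Empty replicate 2. Sbpl had 75.2 CPM in that library and no count in the other 11, while the Dcpp sum also reached 39.7 CPM in a library with the TSH vectors.

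Genes next to the Dcpp cluster set the library apart further. Sbpl, a gene like that of the spermine binding protein of the mouse prostate, had 3668 counts (75.2 CPM) in Empty replicate 2 of 4 weeks. Its other counts were 77 in TSH replicate 1 and 4 in TSH replicate 2 of 1 week, and 18 libraries had none. Sbp, the spermine binding protein itself, had 60 counts there and 2 in TSH replicate 1 of 1 week. The libraries of 4 weeks with the TSH vectors thus had Dcpp counts with no Sbpl or Sbp count.

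A part of the airway epithelium markers was high in the same Empty library. Bpifb1, a secreted protein of upper airway glands and epithelium, had 15.7 CPM there, 0 in the other Empty libraries of 4 weeks and at most 0.697 CPM in the other 20 libraries. The secretoglobin Scgb3a1 had 8.67 CPM, against at most 2.79 in the other 20 libraries, and the airway mucin Muc5b 2.03 CPM, against at most 0.545. Scgb1a1 and Scgb3a2 had 1.74 and 1.72 CPM, close to the highest of the other libraries (1.68 and 1.39). Ltf, which is not on the airway list, had 93.7 CPM there, against at most 8.35 CPM in the other 20 libraries. Lypd2 (35.4 CPM, against 38.9 and 42.1) and Ces1d (691 CPM, against 859 and 933) were lower there than in both other Empty libraries of 4 weeks. The 17 airway markers together gave no such signal, since their sum, most of it Ces1d, was 850 CPM there and 765 to 1269 CPM over the 21 libraries. The ciliary marker Sntn was at 0 in 20 libraries, and Bpifb1 in 15. Of the salivary genes, Prol1 and Scgb2b27 had no count in the 21 libraries, Smr2 had 3 counts in 1 library, and Pip at most 5. Others were higher in this library than in both other Empty libraries of 4 weeks, such as Klk1b22 (9.65 CPM against 0 and 5.04), Klk1b9 (5.22 against 0 and 3.03), kallikreins whose close copies can share reads, and Pigr (3.34 against 0.995 and 1.02). Klk1b22 and Klk1b9 were highest in TSH replicate 2 of 4 weeks, at 18.9 and 37.0 CPM, where the Dcpp sum was 14.8 CPM. At 1 week Empty replicate 2, with 27 Dcpp counts, had a count for 16 of the 17 airway markers, against 8 and 10 in the other Empty libraries. Its Bpifa1 level, 52.2 CPM, was the highest of the 21 libraries, against 51.5 CPM in Empty replicate 2 of 4 weeks. In TSH replicate 1 of 1 week Bpifa1 had 22.2 CPM, against 8.74 and 4.89 in the other TSH libraries of that week. Scgb3a1 had 2.19 CPM there, against 0.350 and 0.262. That library had a count for 14 of the 17 airway markers, against 12 and 13. Its Dcpp sum was 13.4 CPM, against 12.3 and 11.5. Whether another tissue gave the Dcpp counts of these libraries was not tested.

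The genes most like the Dcpp sum over the 21 libraries were Lyz2 (r 0.91), Pcolce2 (0.85), Lilra5 (0.84), Gpr4 (0.83) and Foxf2 (0.83). LYZ2 is the lysozyme of macrophages, LILRA5 a receptor of myeloid cells and FOXF2 a transcription factor of mesenchyme. Lyz2 had a mean (± SD, n = 3) at 1 week of 103.7 ± 19.2 CPM in TSH-MMI, 100.5 ± 7.22 in TSH and 47.7 ± 10.3 in Empty. At 4 weeks it had 63.5, 119.4 and 40.2 CPM in the Empty libraries, so that replicate 2 was the highest of these for Lyz2 as well. Among themselves the copies had r of 0.88 to 0.94.

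Macrophage and cartilage markers were higher where the Dcpp genes were, apart from the Empty library that stood apart. Of 11 markers 10 were tested, and all 10 were called higher with the TSH vectors in each comparison with Empty or Empty-MMI. Their summed level was 250 to 348 CPM in the Empty and Empty-MMI libraries and 493 to 791 CPM in the libraries with the TSH vectors, and Marco was at 0 in 19 libraries. Empty replicate 2 of 4 weeks, with 39.2 CPM of Dcpp, had the lowest macrophage sum of all, 250 CPM. The summed level of 10 cartilage markers was 20.6 to 23.4 CPM in Empty and 53.2 to 83.8 CPM with the TSH vectors at 1 week, and 14.3 to 25.1 CPM without and 27.3 to 41.2 CPM with them at 4 weeks. Of 7 tested cartilage markers 5 were called higher in TSH against Empty at 1 week and 3 at 4 weeks, where 1 was called lower. Of all genes, 14.8% were called higher in TSH and 13.6% in TSH-MMI against Empty at 1 week. At 4 weeks these shares were 8.52% and 8.77%, with 5.62% lower in TSH, and 3.03% were higher in TSH-MMI against Empty-MMI. The part of macrophages and cartilage cells in the Dcpp level of the libraries was not tested.

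Levels of different genes can be set side by side per length. In Empty at 1 week the mean deposited FPKM (fragments per kilobase of transcript, scaled to depth) was 18.9 ± 3.33 for Agr2 (SD, n = 3), 3.33 ± 0.689 for Lrrc26 and 0.426 ± 0.547 for the Dcpp sum. In TSH at 1 week it was 10.3 ± 0.184 for Agr2, 1.77 ± 0.487 for Lrrc26 and 17.8 ± 1.496 for the Dcpp sum. In TSH-MMI at 4 weeks Agr2 had 5.09 ± 0.379, Lrrc26 3.06 ± 0.0296 and the Dcpp sum 45.2 ± 10.1 FPKM. In these 3 groups the levels of the 3 did not overlap, with Agr2 highest in Empty at 1 week and the Dcpp sum highest in both others. In Empty at 4 weeks Agr2 had 19.0 ± 3.75 FPKM and the Dcpp sum ran from 0.396 to 57.5 FPKM, above Agr2 in replicate 2 and below it in the other 2 libraries.

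Of the 18 nearest genes, 3 on each side, 11 were tested at 1 week and 12 at 4 weeks. Near Agr2, 1 of 6 was called in TSH against Empty at 1 week and 2 in TSH-MMI, and near Lrrc26 2 of 5 were called in each, where 14.8% of all genes were called higher and 9.34% lower in TSH, and 13.6% and 7.97% in TSH-MMI. Agr3, the neighbour and relative of Agr2, was not called in any of the 8 comparisons: its log2FC was -1.36 (SE 0.54, edgeR adjusted p = 0.0962) in TSH against Empty at 1 week and 0.15 (SE 0.30, adjusted p = 0.773) at 4 weeks. Bzw2, a translation regulator near Agr2, rose in TSH against Empty at 1 week (0.85, SE 0.17, adjusted p = 0.00576). The calls of Ankmy2 (-0.24, adjusted p = 0.0288) and Man1b1 (0.22, adjusted p = 0.0262) in TSH-MMI against Empty at 1 week, and of Ahr (0.35, adjusted p = 0.0299) at 4 weeks, were each lost under 4 or more alternatives. Near Lrrc26, Dpp7, a dipeptidyl peptidase of vesicles, rose in the 5 comparisons of a TSH vector group with Empty or Empty-MMI, by 1.10 (SE 0.12, adjusted p = 0.00011) in TSH at 1 week, and both calls against Empty at 4 weeks were lost with the skeletal muscle covariate described with the lists. Near the Dcpp cluster Prss21 had no count in any library, and Prss32, Prss41 and Prss30, genes of serine proteases, had at most 15; of the neighbours there only Prss30 was tested, at 4 weeks, and not called.

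Genes that work with the members were taken from 7 lists of 166 symbols, 161 of them in the tables, without the members. The lists were chosen with earlier results of these data known. Some list genes also passed the filter on low counts only through groups where they were high. Counts of list genes beside the shares of all genes are therefore a description and no test of the lists. In TSH against Empty at 1 week, 32 of 102 tested list genes rose and 6 fell, against 14.8% higher and 9.34% lower of all 16956 tested genes. The median log2FC was 0.10 over the list genes and -0.0047 over all genes. In TSH-MMI against Empty 28 rose and 7 fell, against 13.6% and 7.97% of all genes, and 3 fell without Empty replicate 3 and TSH-MMI replicate 2, in which 12 thymocyte markers summed to 272 and 37.1 CPM, against 7.13 to 10.7 CPM in the other libraries of 1 week. With Empty replicate 3 and TSH-MMI replicate 2 left out, 1120 of all 17159 tested genes fell.

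**Figure D5:**
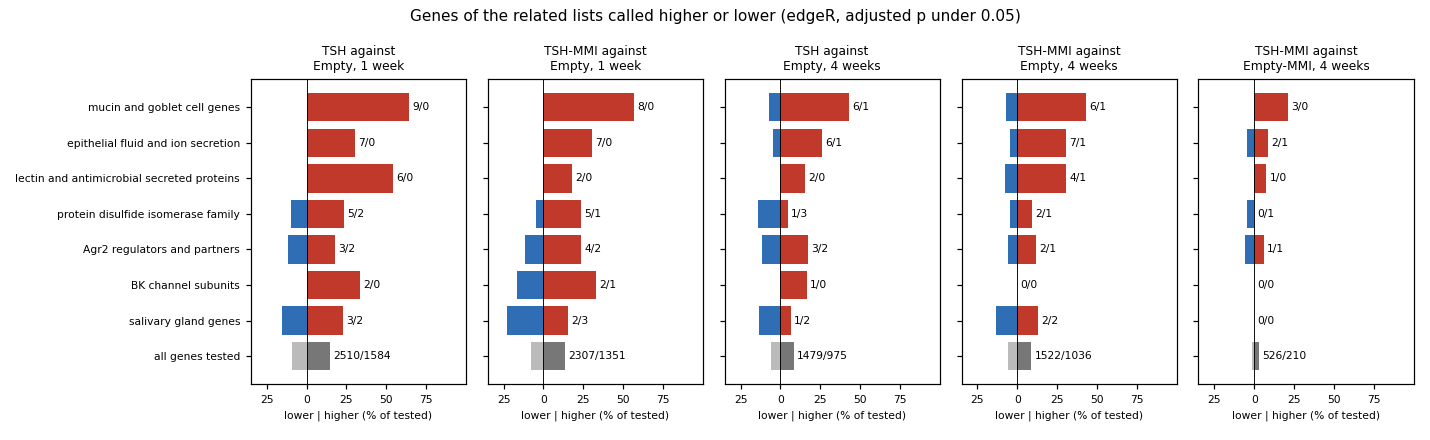
Percent of the tested genes of each related list called higher (red, to the right) or lower (blue, to the left) by edgeR in 5 comparisons, with all genes tested in grey; the figures beside the bars are the numbers higher and lower. In TSH against Empty at 1 week 9 of 14 mucin and goblet cell genes were called higher and 0 lower, against 14.8% and 9.34% of all genes. Some of the 14 passed the filter on low counts only through the groups where they were high.

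Mucin and goblet cell genes were called higher and not lower at 1 week. The list has 34 genes with a row, of which 14 were tested. In TSH against Empty 9 rose and 0 fell, against 14.8% and 9.34% of all genes. In TSH-MMI 8 rose and 0 fell, against 13.6% and 7.97% of all genes. The tested genes include some that passed the filter on low counts only through the groups where they were high, so these counts are partly set by the filter. Muc20, a membrane mucin, had 45.1, 23.6 and 36.8 CPM in TSH-MMI, 31.9, 49.95 and 39.2 CPM in TSH and 8.09, 7.67 and 7.83 CPM in Empty. It rose by a log2FC of 2.36 (SE 0.26, adjusted p = 0.000507) in TSH. Gcnt3, which branches mucin glycans, rose by 1.33 (SE 0.20, adjusted p = 0.000722). The gel-forming mucin Muc5ac and the sialyltransferase St6galnac1 are of that kind: they had no count in Empty at 1 week, and their means in TSH were at least 9.04-fold and 17.4-fold higher, with the floor of 3 counts per library. With no count in Empty, these genes could pass the filter only through groups with the TSH vectors, so the direction of their differences was set by it. The call of Muc5ac was lost with limma on log2(FPKM + 1).

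Of 17 tested regulators and partners of Agr2 3 rose (17.6%) and 2 fell (11.8%) in TSH against Empty at 1 week, near the shares of all genes, 14.8% and 9.34%. Spdef, the transcription factor of goblet cell maturation, had 5.43, 5.13 and 7.07 CPM in TSH-MMI, 5.44, 6.82 and 7.05 CPM in TSH and 2.90, 1.88 and 2.96 CPM in Empty. It rose by 1.31 (SE 0.21, adjusted p = 0.000906) in TSH. Foxa2, a forkhead factor of endodermal epithelia, fell by 1.06 on the log2 scale (SE 0.21, adjusted p = 0.0039), and Dag1, which encodes dystroglycan, rose by 0.56 (SE 0.09, adjusted p = 0.000855). Among 21 tested disulfide isomerases and their partners 5 rose and 2 fell, with a median log2FC of 0.05. The oxidase Ero1l rose by 0.58 (SE 0.06, adjusted p = 5.18e-05) and the isomerase Txndc5 fell by 0.24 on the log2 scale (SE 0.06, adjusted p = 0.0113).

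BK channel genes were few and low. The list has 9 genes with a row, of which 6 were tested. In TSH against Empty at 1 week 2 rose and 0 fell (median log2FC -0.28), against 14.8% and 9.34% of all genes. Lrrc55, another gamma subunit, had 2.66, 3.54 and 3.38 CPM in TSH-MMI, 6.09, 4.29 and 4.50 CPM in TSH and 1.40, 2.03 and 1.90 CPM in Empty, so that among these groups it was highest in TSH, where Lrrc26 was lowest. It rose by 1.48 (SE 0.22, adjusted p = 0.00059) in TSH against Empty. Kcnma1, the pore, ran from 0 to 4.13 CPM over the 21 libraries and was not called in this comparison (-1.32, SE 1.24, adjusted p = 0.489).

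A part of the genes of fluid and ion secretion rose with the TSH vectors. In TSH against Empty at 1 week 7 of 23 tested rose and 0 fell, against 14.8% higher and 9.34% lower of all genes. Among those that rose were the water channel Aqp1 (log2FC 1.84, SE 0.19, adjusted p = 0.000261), the sodium pump subunit Atp1b1 (0.57, SE 0.08, adjusted p = 0.000336) and the chloride cotransporter Slc12a2 (0.43, SE 0.06, adjusted p = 0.000467). Of 26 lectins and antimicrobial proteins with a row 11 were tested, and of these 6 rose and 0 fell. As for the mucins, the filter can let a gene pass through the group where it is high, so this count may be partly set by it. Wfdc2, a secreted protease inhibitor, rose by 1.11 (SE 0.09, adjusted p = 1.06e-05), and Lyz2 rose by 1.08 (SE 0.17, adjusted p = 0.00252), with reads that may be shared with its close copy Lyz1.

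Other salivary gland genes were called in both directions. Of 13 tested at 1 week 3 rose and 2 fell in TSH against Empty, with a median log2FC of -1.03, against 14.8% higher and 9.34% lower of all genes. The water channel Aqp5 rose by 1.23 (SE 0.20, adjusted p = 0.0035). Bhlha15, a factor of serous secretory cells also known as MIST1, had 33.1, 22.3 and 23.1 CPM in Empty and 11.1, 8.44 and 10.6 CPM in TSH. It fell by 1.38 on the log2 scale (SE 0.19, adjusted p = 0.00053), as did the growth factor Egf, by 1.03 (SE 0.20, adjusted p = 0.0031).

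At 4 weeks 19 of 106 tested list genes rose and 9 fell in TSH against Empty, against 8.52% higher and 5.62% lower of all 17355 tested genes. Without Empty replicate 2 the list counts were 12 and 4, against 1128 and 851 of all 17571 genes tested then. The median log2FC was 0.05 over the list genes and -0.03 over all genes. In TSH-MMI against Empty 22 rose and 7 fell, against 8.77% and 5.97%. Skeletal muscle markers, whose sum was 4768 to 15092 CPM in Empty and 21.6 to 1849 CPM in the other 4-week libraries, differed between these groups. Their score was thus largely confounded with Empty at 4 weeks, and a call against Empty lost with it as a covariate cannot be assigned to muscle RNA. With their score as a covariate 7 list genes rose and 5 fell in TSH, against 697 and 245 of all 17355 genes. In TSH-MMI 3 list genes rose and 0 fell, against 235 and 66 of all genes.

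Of 14 tested mucin and goblet cell genes 6 rose and 1 fell in TSH and likewise in TSH-MMI against Empty. The filter can let a gene pass through the group where it is high, so these counts may be partly set by it. Limma on log2(FPKM + 1) called 1 higher in TSH and 7 in TSH-MMI. Of 23 tested genes of fluid and ion secretion 6 rose and 1 fell in TSH and 7 rose and 1 fell in TSH-MMI, and limma called 4 and 8 higher. Of all 17355 genes edgeR called 1479 higher in TSH and 1522 in TSH-MMI, and limma 823 and 1519. Aqp1 rose by 1.48 (SE 0.14, adjusted p = 4.57e-05) in TSH and by 1.86 (SE 0.14, adjusted p = 1.4e-05) in TSH-MMI against Empty, and both calls held at every alternative. Muc20 and Gcnt3 rose in TSH-MMI by 1.68 (SE 0.20, adjusted p = 0.000187) and 1.66 (SE 0.22, adjusted p = 0.000343), also at every alternative. The sulfhydryl oxidase Qsox1 fell by 0.61 on the log2 scale (SE 0.10, adjusted p = 0.00129) in TSH. Bhlha15 fell by 1.73 (SE 0.25, adjusted p = 0.000896) and the amylase Amy1, which has close copies, by 1.25 (SE 0.23, adjusted p = 0.00341) in TSH. Of the 15 tested salivary gland genes 1 rose and 2 fell there, and the 6 tested BK channel genes had 1 called higher.

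With methimazole as the shared background, TSH-MMI against Empty-MMI, 7 list genes rose and 3 fell, against 3.03% and 1.21% of all genes. The number higher was 1 without Empty-MMI replicate 1, 2 without Empty-MMI replicate 2 or TSH-MMI replicate 1, and 4 with the replicate block, whereas DESeq2 called 13 higher and limma on log2(FPKM + 1) 11. Of all genes, 526 were called higher in the main fit and 259 without Empty-MMI replicate 1. They were 235 without Empty-MMI replicate 2, 200 without TSH-MMI replicate 1 and 460 with the block. DESeq2 called 817 of all genes higher and limma 761. Aqp1 rose by 1.21 (SE 0.14, adjusted p = 0.000787), and Lcn2, the secreted lipocalin, rose by 1.37 (SE 0.26, adjusted p = 0.0106), a call lost without Empty-MMI replicate 1 or 2 or TSH-MMI replicate 1.

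In Empty-MMI against Empty DESeq2 called 8 list genes higher and 3 lower, and 381 and 418 of all 17355 genes. By edgeR 2 list genes rose and 1 fell there (1.89% and 0.943%), against 0.57% and 1.08% of all genes. These were Spdef (1.12, SE 0.26, adjusted p = 0.0494), Aqp1 (0.65, SE 0.14, adjusted p = 0.0344) and Bhlha15 (-1.17, SE 0.24, adjusted p = 0.0348), and none of the 3 calls held with the replicate block, the muscle covariate or only the compared groups, or without Empty-MMI replicate 1 or 3. Those of Spdef and Aqp1 were also lost without Empty replicate 1 or 2, and that of Bhlha15 without Empty-MMI replicate 2. In TSH-MMI against TSH no list gene was called by edgeR at either time, against 0.0% higher and 0.0177% lower of all genes at 1 week and 0.0115% and 0.00576% at 4 weeks. At an unadjusted p under 0.05 there were 0 higher and 8 lower at 1 week and 16 higher and 7 lower at 4 weeks. The share of all genes at that threshold is not given here. DESeq2 called 0 list genes higher and 1 lower at 1 week, against 38 and 101 of all 16956 genes. At 4 weeks it called 3 higher and 0 lower, against 37 and 40 of 17355. Limma on log2(FPKM + 1) called none at 1 week, of the lists or of all genes. At 4 weeks it called 1 list gene higher, against 7 higher and 2 lower of all genes.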

How the data were processed

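Mouse thyroid RNA was made into libraries with a stranded mRNA kit, per the labels' protocols. Tools listed with no role or order, per the submitters' processing notes, are StringTie 2.1.3b, HISAT2 2.1.0, Trimmomatic 0.38 and FastQC 0.11.7, and the build is mm10. The annotation, counting step and use of strand were not given in the sources used here. For each gene, the authors deposited a whole-number read count and an FPKM value in each library, in 1 table per week, per the file headers. Deposited TPM values were not used.

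Counts were tested with edgeR 4.0.16 (R 4.3.3; filterByExpr, TMM factors of 0.972 to 1.05 at 1 week and 0.935 to 1.10 at 4 weeks, robust quasi-likelihood fit, Benjamini-Hochberg over all genes, threshold 0.05). The 9 libraries of 1 week and the 12 of 4 weeks were fitted separately over 16956 and 17355 genes. The Dcpp sum was fitted as an extra row outside the adjustment. Likeness is Pearson's r of log2 CPM (prior count 2). The fits were tested on simulated data.

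The members and lists were chosen with earlier results of these data known. Named genes were the members, the 5 genes most like each, neighbours, markers, and up to 4 called genes with the smallest p per list (2 where none was called); fewer are printed for space. Alternatives were DESeq2 1.42.0, limma 3.58.1 on log2(FPKM + 1) and log2(FPKM + 0.1), RLE size factors, no filter, only the compared groups, the replicate block, a skeletal muscle covariate and leaving out libraries. Their use gene by gene was added after the data were seen. Promoter and gene positions are from RefSeq, and coding sequences from GENCODE M21 transcripts; the 5 members were matched by symbol.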

Additional observations from a re-analysis of the deposited data

How the results depend on the processing

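Of 689 member log2 fold changes under the alternatives 636 moved by less than the spread between replicates and 671 kept their sign. For the Dcpp sum against Empty at 4 weeks that spread, with Empty replicate 2 included, was 2.52 to 2.58 log2 units. Shifts below it are counted as unmoved there. The values that follow moved by more than their spread, and the cause was not tested beyond what each alternative leaves out. Without Empty replicate 2 of 4 weeks, Empty-MMI against Empty reversed for Dcpp3 (0.27) and the Dcpp sum (0.36). With limma on log2(FPKM + 1) the Dcpp sum was 3.79 in TSH against Empty at 1 week, -1.55 in Empty-MMI against Empty and 4.62 in TSH-MMI against Empty-MMI. With it Lrrc26 was -0.44 in TSH, 0.46 in Empty-MMI and 0.44 in TSH-MMI against Empty at 4 weeks and 0.89 in TSH-MMI against TSH, and Agr2 was -1.70 in TSH-MMI against Empty and -1.53 against Empty-MMI. With log2(FPKM + 0.1) the last was -1.68, and the Dcpp sum in TSH-MMI against Empty 3.85. With the muscle covariate Agr2 was 0.26 in TSH-MMI against TSH at 1 week, 0.081 in Empty-MMI against Empty and -1.70 in TSH-MMI against Empty, where Lrrc26 was 0.64.

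Counts of list genes called also moved, and so did counts over all genes. In TSH against Empty at 4 weeks edgeR called 975 of all 17355 genes lower and DESeq2 1315. The counts that follow are of list genes, each set against that of all genes under the same alternative. DESeq2 called 12 lower in both comparisons with Empty at 1 week, against 1948 of all genes in TSH and 1802 in TSH-MMI. In TSH-MMI against TSH it called 1 lower at 1 week, against 101, and 3 higher at 4 weeks, against 37. It called 15 lower in TSH against Empty at 4 weeks, against 1315. In Empty-MMI against Empty it called 8 higher and 3 lower, against 381 and 418. In TSH-MMI against Empty-MMI it called 13 higher and 5 lower, against 817 and 406. Limma on log2(FPKM + 1) called 8 higher in TSH against Empty at 4 weeks, against 823. It called 1 higher in Empty-MMI against Empty, against 21, and 1 higher in TSH-MMI against TSH at 4 weeks, against 7. In TSH-MMI against Empty-MMI it called 11 higher and 1 lower, against 761 and 111. With log2(FPKM + 0.1) there were 4 lower in TSH-MMI against Empty at 1 week, against 694. With it 11 were higher in TSH against Empty at 4 weeks, against 884, and 0 in Empty-MMI against Empty, against 34. In TSH-MMI against Empty-MMI it gave 1 lower, against 110. At 4 weeks the muscle covariate was largely confounded with Empty. With it 7 were higher and 5 lower in TSH against Empty, against 697 and 245. In TSH-MMI against Empty 3 were higher and 0 lower, against 235 and 66. In Empty-MMI against Empty there were 0 in each direction, of the lists and of all genes. With only the compared groups Empty-MMI against Empty also had 0 in each direction, against 13 higher and 60 lower. TSH-MMI against Empty at 4 weeks then had 4 lower, against 598. Without both libraries with thymocyte transcripts 3 were lower in TSH-MMI against Empty at 1 week, against 1120.

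Libraries with the same replicate number did not deviate together (correlations -0.25 to 0.27), so the numbers were not taken as pairs. With the replicate block 0 list genes were higher and 0 lower in Empty-MMI against Empty, against 38 and 62 of all genes. In TSH-MMI against Empty-MMI 4 list genes were higher, against 460 of all genes.

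Leaving out each library in turn, the Dcpp sum ranged from 4.66 to 7.02 in TSH and 5.16 to 7.53 in TSH-MMI against Empty at 1 week, and at 4 weeks from -0.065 to 5.09 in TSH, 0.67 to 5.73 in TSH-MMI and -4.71 to 0.36 in Empty-MMI, where Dcpp3 ranged from -5.12 to 0.27. List genes called higher against Empty at 4 weeks ranged from 10 to 16 in TSH, against 906 to 1445 of all genes. They ranged from 13 to 25 in TSH-MMI, against 952 to 1398, and from 0 to 3 in Empty-MMI, against 7 to 85. In TSH-MMI against Empty-MMI they ranged from 1 to 8, against 200 to 440. List genes called lower ranged from 2 to 7 in TSH-MMI against Empty at 1 week, against 646 to 1317 of all genes. At 4 weeks those lower against Empty ranged from 3 to 7 in TSH, against 412 to 1020. They ranged from 4 to 7 in TSH-MMI, against 462 to 975, and from 0 to 1 in Empty-MMI, against 13 to 263. Of 108 calls that the naming rule takes from the lists 55 held at every alternative and 34 were lost without some library. Depth limits the Dcpp values of Empty at 1 week, which rest on 34 counts in all.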
